A study of Arabidopsis thaliana with 9 samples.

Results

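10 genes of the iron deficiency response of Arabidopsis thaliana, chosen by their AGI identifiers, are described here across 9 seedling libraries. They are the transcription factor genes bHLH38, bHLH39, bHLH100, bHLH101 and FIT, the root uptake genes IRT1 and FRO2, the peptide genes IMA1 and IMA2, and the ferritin gene FER1. All 10 were found among the 33323 genes of the deposited count files, and 9 of the 10 passed the filter on low counts, as did 20672 genes in all. IRT1 did not pass it. The libraries came from 3 genotypes with 3 libraries each, numbered 1 to 3 in the sample titles. In pca31, which the series describes as a suppressor of atrzf1, and in atrzf1 itself, a mutant of the RING-type ubiquitin ligase gene AtRZF1, whole seedlings were taken at 2 weeks of age from MS medium. Wild type (WT), the Col-0 accession, was grown in the same way. The labels give no allele, no iron treatment and no stress treatment for any of them, and they do not say whether libraries of a genotype came from separate cultures, so p-values measure the spread between these libraries, which may be technical.

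Plants that lack iron switch on a cascade of basic helix-loop-helix (bHLH) factors. Factors of subgroup IVc activate the subgroup Ib genes bHLH38, bHLH39, bHLH100 and bHLH101 and the IRON MAN peptide genes IMA1 and IMA2, and Ib factors pair with FIT in the root to activate FRO2, a ferric chelate reductase, and IRT1, the main iron transporter of the root epidermis. The Ib and IMA genes respond in leaves as well as in roots. Ferritin stores iron in plastids, and FER1 transcripts are known to be abundant when iron is plentiful and scarce when it is short. A count here comes from the 3' end of transcripts and is given as CPM, the count scaled by the library's effective size, without a length correction, so levels are compared between libraries and not between genes.

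The libraries held 22478803 to 33073605 counts, and a count of 0 allows up to 3 counts, or 0.0867 to 0.131 CPM, by counting error. AtRZF1 was at 1.16 to 4.6 CPM in the 6 libraries of pca31 and atrzf1, against 24 to 31 CPM in the 3 WT libraries. Libraries with the same number resembled each other across genotypes, and the libraries numbered 3 stood apart. In these, 10 of 11 root marker genes lay above every library numbered 1 or 2. The summed root marker level was 1510 to 2110 CPM in number 3, against 37.2 to 172 CPM in numbers 1 and 2, and EXPA7, an expansin of root hairs, had 0 counts in all 6 libraries of numbers 1 and 2. The summed level of 7 green shoot markers was 17900 to 23700 CPM in number 3, against 34200 to 68500 CPM in numbers 1 and 2, but the list was not lower as a whole. RBCS1A, RBCS3B and LHCB1.3 lay below every other library in number 3. LHCB1.1, LHCB2.1 and LHCA1 lay between numbers 2 and 1 there, above number 2 (LHCB2.1 at 920 to 1740 CPM in number 3, 130 to 368 CPM in number 2 and 4330 to 5590 CPM in number 1), and LHCB3 overlapped number 2. What the number stands for, such as a sowing or a harvest, is not given in the labels.

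The 250 bases upstream of the annotated starts of 7 genes are shown, those called between number 3 and the other libraries, of which FER1 moved against the other 6. They were read from RefSeq TAIR10.1, 5′ to 3′ on each gene's strand, and all 10 genes matched a locus tag there. Capitals mark E-boxes, the sequence CANNTG that bHLH factors bind, a pattern that reads the same on both strands. The G-box CACGTG is 1 form of it.
bHLH38: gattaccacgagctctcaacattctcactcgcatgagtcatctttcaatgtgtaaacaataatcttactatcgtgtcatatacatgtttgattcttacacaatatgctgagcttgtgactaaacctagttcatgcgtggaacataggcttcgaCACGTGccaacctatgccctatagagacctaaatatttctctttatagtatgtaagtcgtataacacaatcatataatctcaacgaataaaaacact
bHLH39: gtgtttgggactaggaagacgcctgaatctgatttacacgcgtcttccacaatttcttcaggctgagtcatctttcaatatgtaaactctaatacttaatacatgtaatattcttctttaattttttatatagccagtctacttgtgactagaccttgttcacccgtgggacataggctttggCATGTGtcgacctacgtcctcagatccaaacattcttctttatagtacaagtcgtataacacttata
bHLH100: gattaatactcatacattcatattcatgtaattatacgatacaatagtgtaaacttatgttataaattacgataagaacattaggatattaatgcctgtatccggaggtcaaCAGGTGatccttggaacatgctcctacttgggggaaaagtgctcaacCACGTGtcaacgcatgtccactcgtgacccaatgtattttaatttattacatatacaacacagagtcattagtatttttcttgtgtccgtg
bHLH101: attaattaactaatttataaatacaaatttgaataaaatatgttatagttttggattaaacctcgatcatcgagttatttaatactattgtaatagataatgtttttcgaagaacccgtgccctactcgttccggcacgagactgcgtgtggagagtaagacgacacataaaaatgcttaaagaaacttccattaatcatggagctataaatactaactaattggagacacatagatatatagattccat
IMA1: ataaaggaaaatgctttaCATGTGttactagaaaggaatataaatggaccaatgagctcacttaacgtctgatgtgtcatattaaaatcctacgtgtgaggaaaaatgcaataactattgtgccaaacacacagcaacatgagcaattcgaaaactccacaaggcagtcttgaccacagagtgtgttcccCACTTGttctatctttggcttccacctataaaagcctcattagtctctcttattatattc
IMA2: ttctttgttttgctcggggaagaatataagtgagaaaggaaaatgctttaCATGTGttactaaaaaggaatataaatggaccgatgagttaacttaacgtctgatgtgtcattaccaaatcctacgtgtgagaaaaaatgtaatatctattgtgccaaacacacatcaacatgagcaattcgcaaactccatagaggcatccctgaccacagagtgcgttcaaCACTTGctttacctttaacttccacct
FER1: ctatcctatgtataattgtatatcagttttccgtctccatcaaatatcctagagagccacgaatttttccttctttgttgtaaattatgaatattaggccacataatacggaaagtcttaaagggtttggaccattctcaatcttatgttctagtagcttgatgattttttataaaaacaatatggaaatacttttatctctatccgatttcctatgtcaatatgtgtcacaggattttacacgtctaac
The bHLH38 window (chr3:21085246-21085495, minus strand) and the bHLH100 window (chr2:17199455-17199704, minus strand) each hold 1 G-box, whose first base lies 97 and 91 bases before the start. The bHLH100 window holds a second E-box, CAGGTG, and the bHLH39 window (chr3:21087711-21087960, minus strand) holds 1 E-box, CATGTG, and 0 G-boxes. The windows of IMA1 (chr1:17385457-17385706, plus strand) and IMA2 (chr1:17382748-17382997, plus strand) hold 2 E-boxes each, CATGTG and CACTTG, and share an identical stretch of 28 bases. The windows of bHLH101 (chr5:1139634-1139883, minus strand) and FER1 (chr5:230052-230301, minus strand) have 0 matches, as have those of IRT1 and FRO2, and that of FIT has 1. Of 27443 windows of this length at protein-coding genes, 6.49% hold a G-box and 55.3% an E-box. The matches describe letters only.

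bHLH38 (AT3G56970, TAIR10.1 chromosome 3, 21084035 to 21085245, minus strand) and bHLH39 (AT3G56980, 21086390 to 21087710, minus strand) are neighbours, 1144 bases apart, and AtRZF1 lies 120 kb from bHLH38 with 52 annotated genes between them. IMA2 (AT1G47395, chromosome 1, 17382998 to 17383830, plus strand) and IMA1 (AT1G47400, 17385707 to 17386485, plus strand), each with 1 exon, are neighbours 1876 bases apart. The annotated transcripts of IMA1 and IMA2 share an identical stretch of 59 bases, 511 and 557 bases from their 3' ends, and those of bHLH38 and bHLH39 share 34 bases, so counts of these pairs could have been split in part. The remaining genes are bHLH100 (AT2G41240, chromosome 2, 17198037 to 17199454, minus strand), bHLH101 (AT5G04150, chromosome 5, 1138410 to 1139633, minus strand), FIT (AT2G28160, chromosome 2, 12004658 to 12006276, plus strand), IRT1 (AT4G19690, chromosome 4, 10707344 to 10709015, plus strand), FRO2 (AT1G01580, chromosome 1, 208995 to 213082, plus strand) and FER1 (AT5G01600, chromosome 5, 227953 to 230051, minus strand).

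The libraries numbered 3 were compared with those numbered 1 and 2 within genotypes, because the numbers separated the libraries more than genotype did. Same-numbered libraries deviated together, and no number was itself repeated. The p-values of number comparisons thus measure the spread within numbers, not the spread between repeats of a number. The subgroup Ib factor and IMA peptide transcripts were far lower in number 3 than in numbers 1 and 2 in all 3 genotypes, while FER1 was higher. Of the 9 genes tested, 6 were called lower and 1 higher (edgeR quasi-likelihood test, Benjamini-Hochberg adjusted p under 0.05 over all genes). Over all tested genes 45.7% were called in this comparison, 22.1% lower and 23.6% higher. The same 6 and 1 genes did not overlap in CPM between number 3 and the other libraries, as was so for 17.3% of all genes in the lower direction and 18.9% in the higher. The genes bHLH38, bHLH101 and IMA1 reached the filter's level of 0.344 CPM in no library numbered 3 and so passed through the other 6. This fixed their direction, so their calls could only be lower. FRO2 reached it in the 3 libraries numbered 1, in 2 numbered 3 and in 0 numbered 2. All 7 calls held under each of the 14 alternative settings, which leave out single libraries or change the test, scaling, filter or genotype term.

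**Figure D1:**
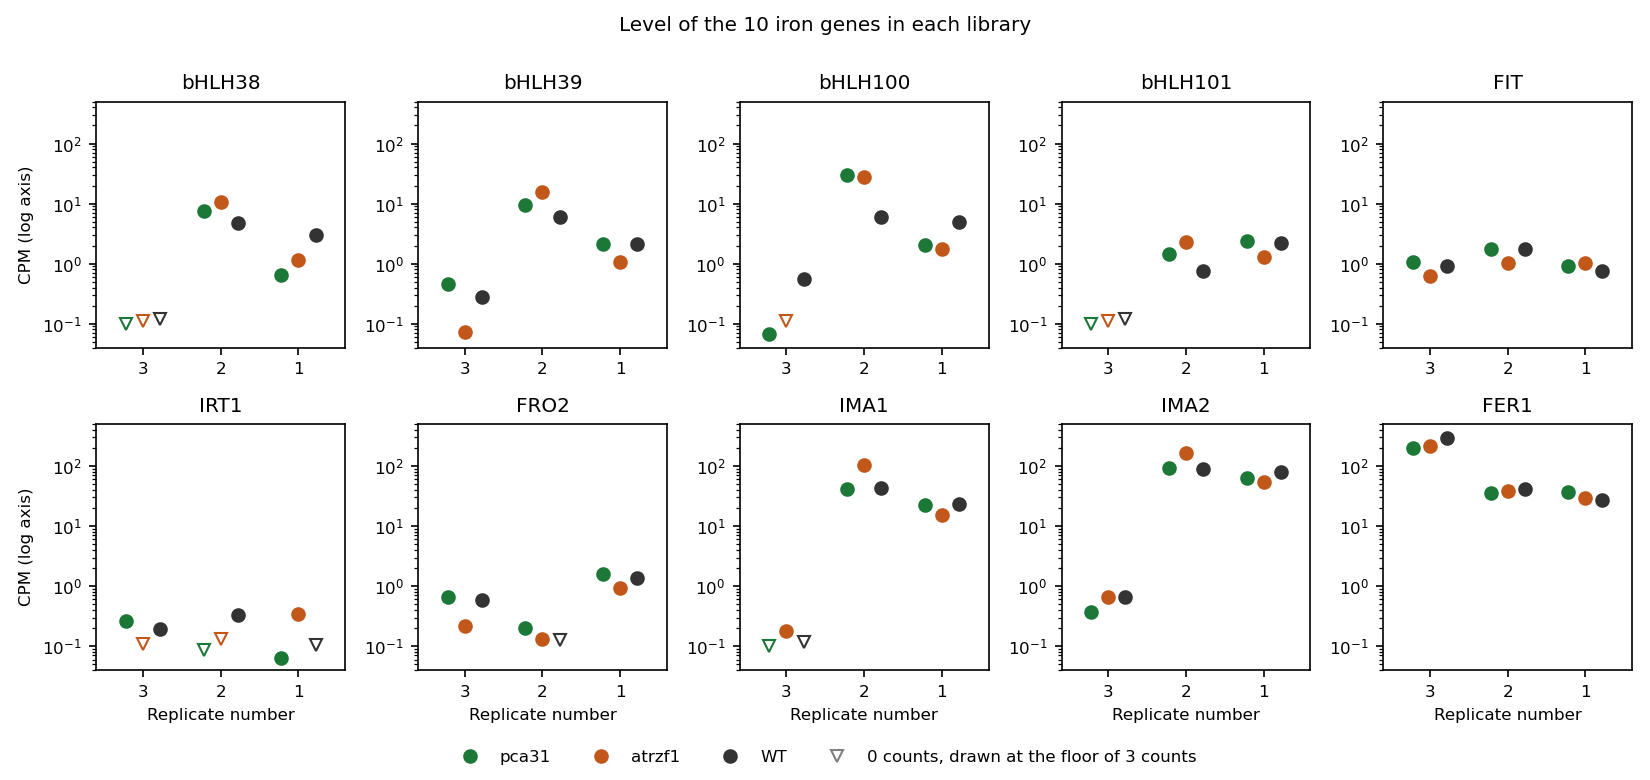
Level in CPM (log axis) of each of the 10 genes in each of the 9 libraries, by replicate number and genotype, with 0 counts drawn as open triangles at the floor of 3 counts. The 4 Ib factor genes and both IMA genes lie lowest in number 3, and FER1 lies highest there, at 203 to 290 CPM against 27.6 to 42.3 CPM.

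bHLH38, a Ib factor that dimerizes with FIT, had 0 counts in each of the 3 libraries numbered 3. Its level in pca31, atrzf1 and WT was 7.43, 10.7 and 4.7 CPM in number 2 and 0.644, 1.15 and 2.95 CPM in number 1. Number 3 was thus at least 42.2-fold lower than the mean of the 6 others, against a floor of 3 counts per library (edgeR, adjusted p = 8.8e-05). For bHLH39, its tandem neighbour with the same role, the 3 genotypes in that order had 0.465, 0.0729 and 0.275 CPM in number 3, 9.51, 15.5 and 6.08 CPM in number 2, and 2.12, 1.08 and 2.1 CPM in number 1. The number 3 libraries lay below all others, with a log2 fold change of -3.97 ± 0.53 (edgeR, adjusted p = 0.000101), which was -4.56 without pca31 library 3.

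bHLH100, another Ib factor, was at 0.0664, 0 and 0.55 CPM in number 3 of pca31, atrzf1 and WT. Number 2 of these genotypes had 29.9, 28.1 and 6.04 CPM and number 1 had 2.06, 1.76 and 4.9 CPM. Every number 3 library was lower than every other, by 58.9-fold between the means and by -5.35 ± 0.85 on the log2 scale of the fit (edgeR, adjusted p = 0.00037). WT library 3 held 14 of the 16 counts in number 3. The fitted value was -7.72 without it, -6.07 without WT library 2, -4.7 without WT library 1 and -4.74 without atrzf1 library 3. bHLH101, the most divergent of the Ib genes in sequence, had 0 counts in number 3 of all genotypes. It was at 1.42, 2.28 and 0.755 CPM in number 2 and at 2.35, 1.28 and 2.17 CPM in number 1 of pca31, atrzf1 and WT. Its number 3 libraries were at least 15.7-fold lower against the same floor (edgeR, adjusted p = 0.000229). The gene overlaps AT5G04140 on the opposite strand by 79 bases at its end, and bHLH38 overlaps AT3G56960 by 386 bases. Their levels of 0 in number 3 were counted beside 3912 to 4382 counts of AT5G04140 and 1 or 2 counts of AT3G56960.

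IMA1, which encodes a short peptide that promotes iron uptake by shielding IVc factors from degradation, had 0, 5 and 0 counts in number 3 of pca31, atrzf1 and WT. The same genotypes had 41.7, 104 and 43.1 CPM in number 2 and 22.5, 15.1 and 23.6 CPM in number 1. The mean of number 3 was 0.0607 CPM, resting on the 5 counts of 1 library and below the mean floor of 0.109 CPM, against 41.7 CPM over the 6 others. Set at that floor, number 3 was 383-fold lower (edgeR, log2 fold change -9.14 ± 0.62, adjusted p = 5.6e-07). Without atrzf1 library 3, the number 3 libraries left are at 0 and the fitted value, which then depends on the prior count, was -12.81. IMA2, a peptide gene of the same family, was at 0.365, 0.656 and 0.668 CPM in number 3, at 92.2, 167 and 90 CPM in number 2, and at 63.2, 54.4 and 81.1 CPM in number 1, in the same order of genotypes. Its ranges did not overlap, and the log2 fold change was -7.29 ± 0.33 (edgeR, adjusted p = 2.53e-08). IMA1 made up 31.1% to 38.5% of the counts of the IMA pair in number 2 and 21.7% to 26.2% in number 1.

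FER1, the ferritin gene whose transcript follows iron supply, moved the other way. It was at 203, 220 and 290 CPM in number 3 of pca31, atrzf1 and WT, at 35.6, 38.5 and 42.3 CPM in number 2 and at 37.5, 29.2 and 27.6 CPM in number 1. The mean was 238 ± 45.9 CPM (SD, n = 3) in number 3, against 35.1 ± 5.69 CPM (SD, n = 6), a log2 fold change of 2.76 ± 0.15 (6.76-fold, edgeR, adjusted p = 1.13e-07). AT5G01595, on the opposite strand, overlaps it by 1334 bases and had 215 to 282 counts in number 3 and 314 to 534 counts in numbers 1 and 2, so its own counts did not run with those of FER1.

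No such split was detected for the FIT, FRO2 and IRT1 transcripts, which mark iron uptake in the root and were all low in counts. FIT, the root partner of the Ib factors, was at 1.06, 0.619 and 0.904 CPM in number 3 of pca31, atrzf1 and WT, at 1.76, 1.01 and 1.76 CPM in number 2, and at 0.901, 1.01 and 0.746 CPM in number 1. The groups overlapped and the log2 difference of number 3 was -0.44 ± 0.45 (edgeR, adjusted p = 0.451). FRO2 was at 0.664, 0.219 and 0.59 CPM in number 3, at 0.202, 0.131 and 0 CPM in number 2, and at 1.58, 0.947 and 1.35 CPM in number 1, with a difference of 0.31 ± 0.69 for number 3 against the 6 others (edgeR, adjusted p = 0.741). That fitted difference and the means, 0.491 against 0.701 CPM, differ in sign. IRT1 had 8, 0 and 5 counts in number 3, 0, 0 and 8 counts in number 2 and 2, 10 and 0 counts in number 1 of pca31, atrzf1 and WT. With 4 of 9 libraries at 0 counts and at most 0.338 CPM in any, IRT1 was near the limit of detection and no difference was detectable at this depth.

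**Figure D2:**
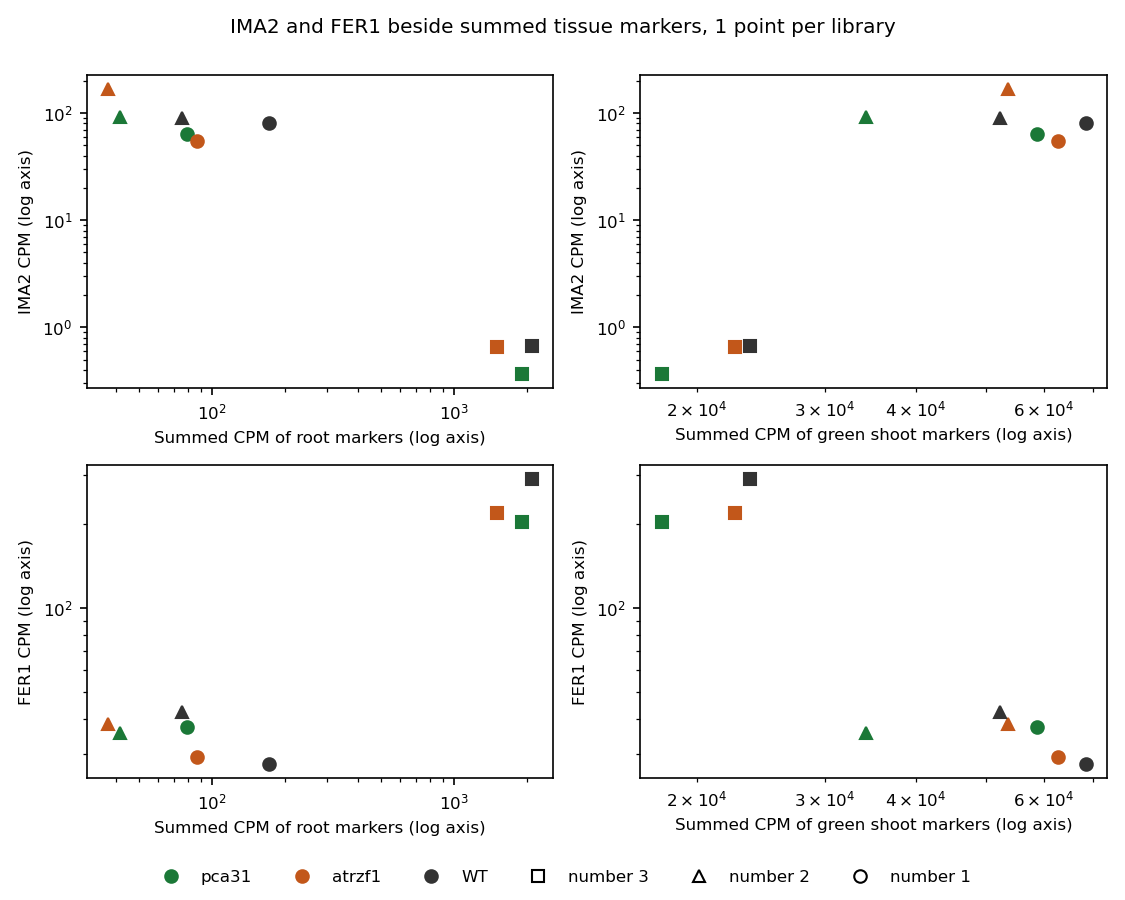
IMA2 (top) and FER1 (bottom) in CPM against the summed CPM of 11 root markers (left) and 7 green shoot markers (right), 1 point per library, all axes logarithmic. The 3 number 3 libraries (squares) combine root marker sums of 1510 to 2110 CPM with IMA2 at 0.365 to 0.668 CPM and FER1 at 203 to 290 CPM.

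10 of 11 root markers and 3 of 7 green shoot markers moved with the same libraries as the Ib, IMA and FER1 transcripts. Their part in the differences was not tested, and fewer cells of a type cannot be told apart from less RNA per cell in these bulk samples. Among the 11 root markers, the number 3 libraries had 1340 to 1850 CPM of PYK10, a glucosidase stored in root cells, against 17.3 to 152 CPM in numbers 1 and 2. PHT1;1, a root phosphate transporter, was at 51.5 to 79.3 CPM in number 3, against 0 to 0.178 CPM, with 0 counts in 5 of the 6. NRT2.1, a root nitrate transporter, was the exception, at 0 to 0.0393 CPM in number 3 and 0 to 0.881 CPM in numbers 1 and 2.

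Between numbers 2 and 1, 6 of the 9 tested genes were called, 5 higher and 1 lower in number 2, where 21.9% of all genes were called, 9.87% higher and 12.1% lower. The ranges of these 6 genes did not overlap between the numbers, as was so for 17.7% of all genes in the higher and 20.4% in the lower direction. The Ib genes bHLH38, bHLH39 and bHLH100 were higher in number 2, by 2.45 ± 0.56, 2.55 ± 0.47 and 3 ± 0.72 on the log2 scale (edgeR, adjusted p = 0.0136, 0.00346 and 0.0128). IMA1 was higher by 1.47 ± 0.37 and IMA2 by 0.77 ± 0.24 (edgeR, adjusted p = 0.0158 and 0.0394). FRO2 was lower, at 10 counts over the 3 libraries numbered 2 against 115 over those numbered 1, with a log2 fold change of -3.51 ± 0.91 (edgeR, adjusted p = 0.018). FRO2 reached the filter's level in no library numbered 2 and in all those numbered 1, so its call here could only be lower. The differences of bHLH101 (-0.47 ± 0.61), FIT (0.72 ± 0.52) and FER1 (0.3 ± 0.18) did not pass the test. Over the numbers, mean levels of the IMA genes and of the other 3 Ib genes thus ran from number 2 through number 1 to number 3, and those of FER1 were highest in number 3, with numbers 2 and 1 not told apart.

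These calls rested on single libraries more than those of number 3 did. Without atrzf1 library 1 only bHLH39 was called among the 9, and without atrzf1 library 2 bHLH39 and FRO2 were. Without pca31 library 1 the count was 3, bHLH39, IMA1 and IMA2. Without pca31 library 2 the adjusted p of bHLH100 was 0.0528, and FRO2 missed the threshold without WT library 1 or 2, at 0.0693 and 0.0584 (edgeR). The differences kept their direction in all of these fits, with log2 values of 1.91 to 3.36 for bHLH38, 2.23 to 4.08 for bHLH100, 0.83 to 1.83 for IMA1, 0.4 to 1.07 for IMA2 and -3.98 to -2.84 for FRO2. bHLH39 was the gene that stayed called in all 9 fits that left out 1 library, at a highest edgeR adjusted p of 0.0324. DESeq2 called 5 of them, with IMA1 at an adjusted p of 0.249, and edgeR with library totals called 5, with IMA2 at 0.0668.

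Genotype was compared next, to ask whether these genes differ between pca31, atrzf1 and WT. By edgeR's quasi-likelihood test with genotype as the only term, 0 of the 9 tested genes were called between pca31 and atrzf1, pca31 and WT, or atrzf1 and WT, with 0 at an unadjusted p under 0.05 in each. Of all tested genes 0.00484%, 0.00484% and 0% were called in these comparisons. AtRZF1 itself, at 24 to 31 CPM in WT and 2.11 to 4.6 CPM in atrzf1, was thus not called between them by this fit. A lack of calls in this fit therefore does not show equal levels. With the replicate number as a block the shares were 0.00484%, 0.0435% and 0.0339%, that is 1, 9 and 7 genes, and again 0 of the 9 were called, with 0 at an unadjusted p under 0.05. DESeq2 called 0 of them, with and without the block. In the blocked fit 0% of all genes were called higher in pca31 than in atrzf1, 0.0339% higher and 0.00967% lower in pca31 than in WT, and 0.029% higher and 0.00484% lower in atrzf1 than in WT.

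For 0 of the 10 genes did the 3 libraries of a genotype lie wholly above or below those of another. Over all genes that was so for 1.79% higher and 1.27% lower in pca31 against atrzf1, 2.89% and 2.06% in pca31 against WT, and 1.3% and 1.14% in atrzf1 against WT. The 4 flower markers summed to 16 to 39.3 CPM in pca31 and 18 to 52.5 CPM in atrzf1, against 4.66 to 11.6 CPM in WT, and their part in genotype differences was not tested.

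**Figure D3:**
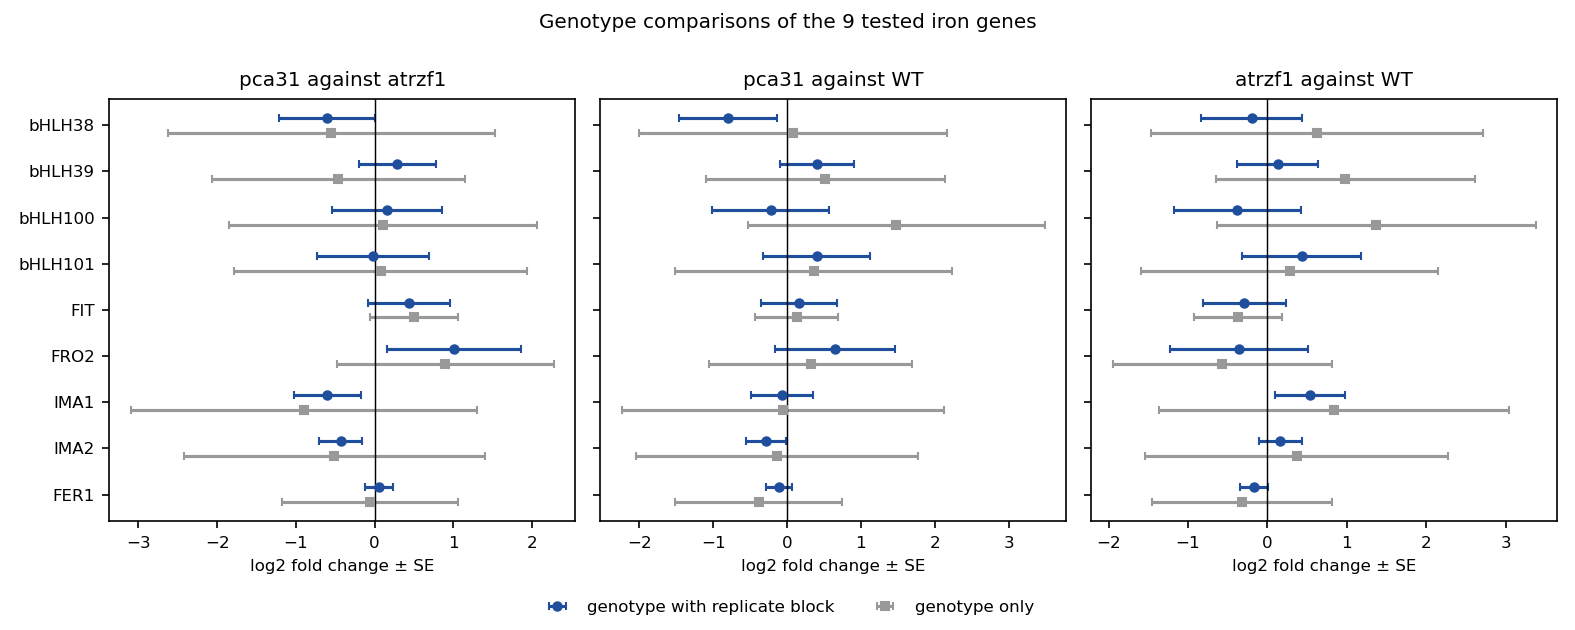
Log2 fold change with its approximate standard error for the 9 tested genes in the 3 genotype comparisons, with the replicate number as a block (circles) and without it (squares). Every value of the blocked fit lies between -0.8 and 1.01, and standard errors of the Ib, IMA and FER1 genes are smaller with the block.

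FER1 and IMA2 had the smallest standard errors in the blocked fit. FER1, the ferritin gene, averaged 92 ± 96 CPM in pca31, 96 ± 108 in atrzf1 and 120 ± 147 in WT (SD, n = 3 each), with the number 3 library highest in each. Its blocked log2 differences were 0.06 ± 0.18 for pca31 against atrzf1, -0.11 ± 0.18 for pca31 against WT and -0.17 ± 0.18 for atrzf1 against WT. IMA2 averaged 51.9 ± 47 CPM in pca31, 74 ± 84.8 in atrzf1 and 57.3 ± 49.2 in WT, with blocked differences of -0.43 ± 0.27, -0.28 ± 0.27 and 0.16 ± 0.27 in the same order of comparisons. For IMA1 the means were 21.4 ± 20.9, 39.9 ± 56.4 and 22.2 ± 21.6 CPM, and the blocked differences were -0.6 ± 0.43, -0.07 ± 0.42 and 0.54 ± 0.44. In each of these genes the genotypes overlapped in CPM, and none of these differences passed the test.

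Among the transcription factor genes the means of pca31, atrzf1 and WT were 2.69 ± 4.11, 3.96 ± 5.89 and 2.55 ± 2.38 CPM for bHLH38 and 4.03 ± 4.81, 5.55 ± 8.63 and 2.82 ± 2.97 CPM for bHLH39. bHLH100 had 10.7 ± 16.7, 9.94 ± 15.7 and 3.83 ± 2.9 CPM, and bHLH101 had 1.25 ± 1.18, 1.19 ± 1.14 and 0.974 ± 1.1 CPM. Their standard deviations were mostly close to or above the means. The log2 differences of bHLH38 were -0.6 ± 0.61 for pca31 against atrzf1, -0.8 ± 0.66 for pca31 against WT and -0.2 ± 0.64 for atrzf1 against WT in the blocked fit. For bHLH39 they were 0.29 ± 0.49, 0.41 ± 0.5 and 0.13 ± 0.51 in that order of comparisons, and for bHLH101 -0.02 ± 0.71, 0.4 ± 0.72 and 0.43 ± 0.75. The blocked log2 differences of bHLH100 were 0.16 ± 0.7 for pca31 against atrzf1, -0.22 ± 0.79 for pca31 against WT and -0.38 ± 0.8 for atrzf1 against WT. FIT, at 1.24 ± 0.458, 0.88 ± 0.226 and 1.14 ± 0.547 CPM, had standard deviations below its means. FRO2, the reductase gene, was at 0.815 ± 0.699, 0.432 ± 0.448 and 0.647 ± 0.677 CPM, with blocked differences of 1.01 ± 0.85, 0.65 ± 0.81 and -0.36 ± 0.87 in the same order of comparisons. IRT1 summed to 10, 10 and 13 counts over the libraries of pca31, atrzf1 and WT.

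Within each of the 3 replicate numbers, 2 of the 10 genes were higher in pca31 than in atrzf1, as were 12.6% of all tested genes. They were FRO2, at ratios of 3.04 in number 3, 1.54 in number 2 and 1.67 in number 1, and bHLH100, whose number 3 libraries had 2 and 0 counts. The FRO2 ratios came from 20 and 6 counts in number 3, 7 and 3 in number 2, and 49 and 28 in number 1. Likewise 3 genes, bHLH39, FIT and FRO2, were higher in pca31 than in WT within each number, against 15.7% of all tested genes. The ratios of bHLH39 were 1.69, 1.56 and 1.01 in numbers 3, 2 and 1, and those of FIT were 1.18, 1 (rounded) and 1.21. For FRO2 the number 2 libraries of pca31 and WT had 7 and 0 counts. None of these differences passed the test in the blocked fit.

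Within replicate numbers the atrzf1 to WT ratio of the Ib and IMA genes took opposite directions. In number 2 all 6 genes were higher in atrzf1 than in WT, by 2.28-fold for bHLH38, 2.55 for bHLH39, 4.65 for bHLH100, 3.02 for bHLH101, 2.42 for IMA1 and 1.85 for IMA2. In number 1 all 6 were lower in atrzf1, with ratios of 0.39, 0.516, 0.359, 0.593, 0.639 and 0.67 in that order. Of all tested genes 25% were higher in number 2 and lower in number 1 in this way. These ratios set 1 library against 1, so the change of direction has no replicate check.

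**Figure D4:**
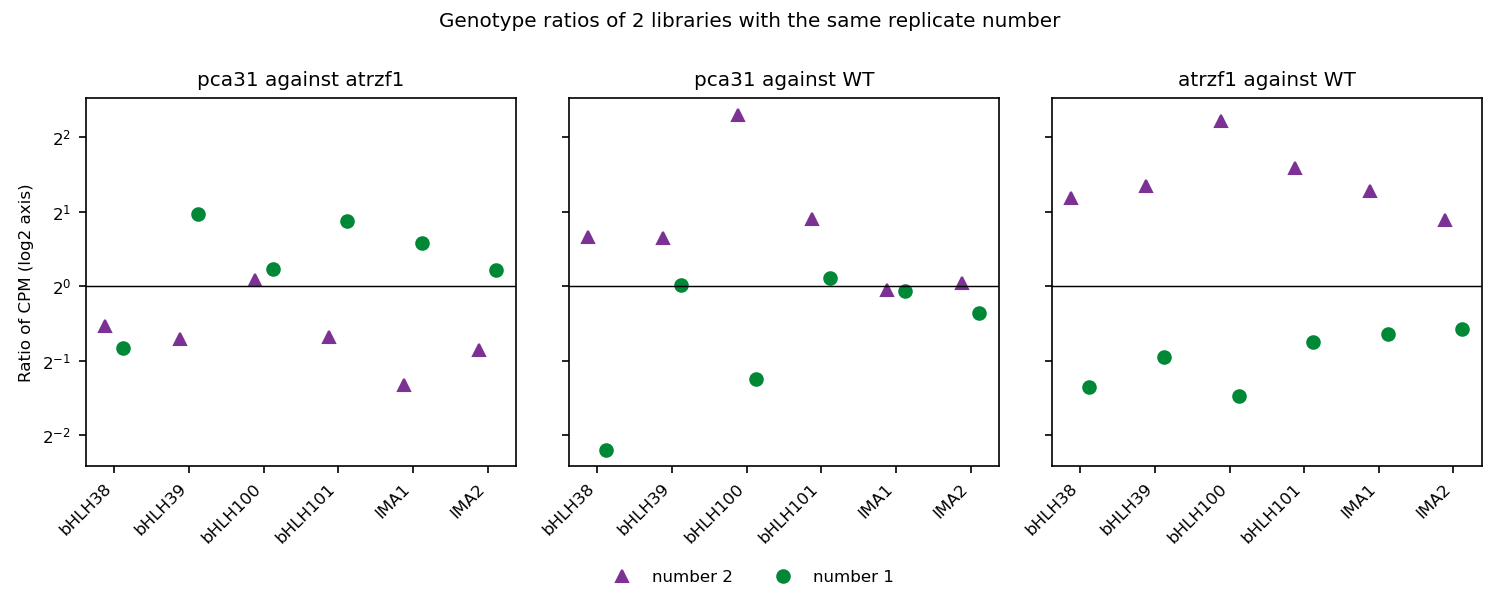
Ratio of CPM (log2 axis) between 2 genotypes in libraries of the same replicate number, for the 4 Ib genes and both IMA genes. In the panel of atrzf1 against WT all 6 ratios of number 2 (triangles) lie above 1 and all 6 of number 1 (circles) below 1.

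The same ratios between pca31 and WT were closer to 1 for most of these genes. IMA1 was at 0.967 of WT in number 2 and 0.952 in number 1, IMA2 at 1.03 and 0.778, bHLH39 at 1.56 and 1.01, and bHLH101 at 1.87 and 1.08. bHLH38 had ratios of 1.58 and 0.218, and bHLH100 of 4.94 and 0.42, each higher in number 2 and lower in number 1, as were 20.5% of all genes. Against atrzf1, pca31 had ratios of 0.399 in number 2 and 1.49 in number 1 for IMA1 and of 0.553 and 1.16 for IMA2, lower in number 2 and higher in number 1, as were 24.8% of all tested genes. The opposite pattern was found for 25.4%. The comparisons share libraries, so their ratios are not independent of each other.

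Other genes of iron homeostasis were read from 3 lists chosen by function. Of 17 further regulators 14 were tested, and in number 3 against numbers 1 and 2, 3 were called higher and 5 lower, where 23.6% of all tested genes were called higher and 22.1% lower. Among those tested, bHLH11 and BTSL1 needed the number 3 libraries to pass the filter. They were at 1.03 to 1.49 and 0.532 to 0.865 CPM in number 3, against 0 to 0.507 and 0 to 0.549 CPM in numbers 1 and 2. AT2G30766, an uncharacterized protein in RefSeq, as IMA1 and IMA2 are there, fell to 0.112 ± 0.109 CPM in number 3, against 97.4 ± 61.1 CPM (log2 fold change -9.58 ± 0.44, edgeR, adjusted p = 2.86e-08). The size of that fitted value rests on 0, 6 and 3 counts in number 3 of pca31, atrzf1 and WT. AT2G30766 stayed under the filter's level of 0.344 CPM in number 3 and so passed through the other libraries, which fixed its direction. BTS, a ubiquitin ligase that removes IVc factors and is itself raised by iron deficiency, was at 15.8 ± 1.27 CPM, against 42.9 ± 5.25 CPM (-1.44 ± 0.16, adjusted p = 3e-05 by edgeR). bHLH104, a IVc activator of the Ib genes, was lower by -1.22 ± 0.19 (edgeR, adjusted p = 0.000297). NAI1, a bHLH factor known for the endoplasmic reticulum bodies in which PYK10 is stored, was higher, at 30.6 ± 8.35 CPM against 6.81 ± 3.08 CPM (edgeR, adjusted p = 8.11e-06). Between numbers 2 and 1, 1 regulator was called higher, AT2G30766 (1.4 ± 0.27, edgeR, adjusted p = 0.00416).

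**Figure D5:**
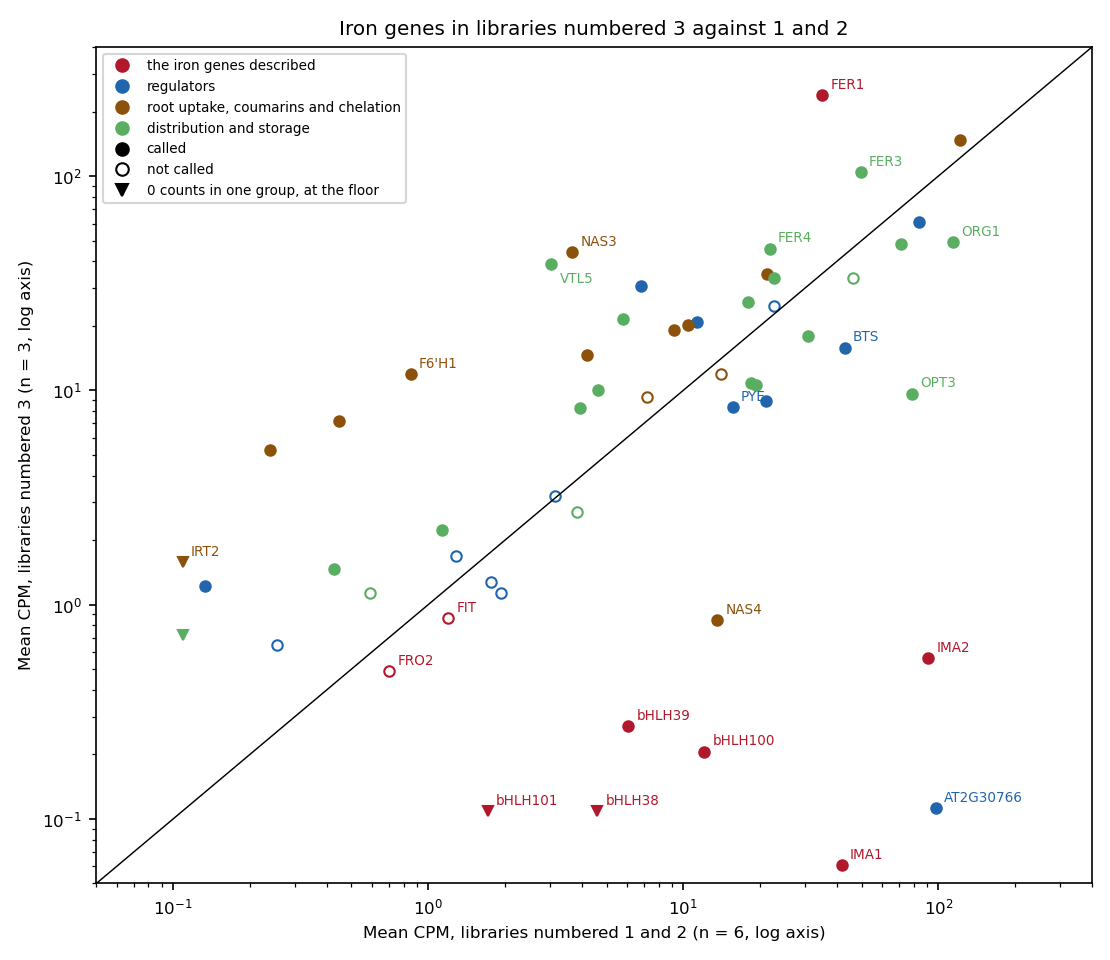
Mean CPM in the 3 libraries numbered 3 against the mean in the 6 numbered 1 and 2 (log axes) for all tested iron genes, coloured by list, filled where called by edgeR, with triangles for genes at 0 counts in 1 of the groups and the line marking equal levels. IMA1, IMA2, AT2G30766 and the Ib genes lie far below the line, and FER1, VTL5 and NAS3 lie above it.

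Of 18 genes of root uptake, coumarin synthesis and chelation 13 were tested, with 10 called higher and 1 lower in number 3, against 23.6% and 22.1% of all tested genes. IRT2, with 0 counts in all 6 libraries of numbers 1 and 2, passed the filter only through number 3, which fixed its direction. PDR9 also needed the number 3 libraries to pass, at 3.93 to 7.11 CPM there and 0 to 0.546 CPM in numbers 1 and 2. NAS3 and NAS4 encode nicotianamine synthases, which make an iron chelator, and went opposite ways. NAS3 was at 44.3 ± 7.74 CPM in number 3, against 3.67 ± 2.47 CPM, and NAS4 at 0.848 ± 0.166 CPM, against 13.6 ± 5.85 CPM (log2 fold changes 3.93 ± 0.23 and -3.93 ± 0.31, edgeR, adjusted p = 1.99e-07 and 1.75e-06). F6'H1, which makes the root coumarin scopoletin, was at 11.9 ± 4.13 CPM, against 0.854 ± 0.21 CPM (edgeR, adjusted p = 5.83e-07), and FRO4, a reductase gene, at 14.6 ± 4.72 CPM, against 4.2 ± 1.91 CPM (edgeR, adjusted p = 4e-05). The root markers were higher in the same libraries.

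Of 23 genes of iron distribution and storage 20 were tested, with 11 called higher and 6 lower in number 3, against the same 23.6% and 22.1%. FPN2, with 0 counts in all 6 libraries of numbers 1 and 2, likewise passed the filter only through number 3. MTP3, at 0 to 1.49 CPM in numbers 1 and 2 and 0.692 to 2.52 CPM in number 3, also needed number 3 to pass. OPT3, which loads iron into the phloem, was at 9.64 ± 0.673 CPM in number 3, against 79 ± 30.3 CPM (-2.94 ± 0.18, edgeR, adjusted p = 2.9e-07). VTL5, a vacuolar iron transporter-like gene, was at 38.8 ± 7.23 CPM, against 3.03 ± 1.23 CPM, and YSL2, a metal chelate transporter, at 21.5 ± 2.78 CPM, against 5.82 ± 0.759 CPM (edgeR, adjusted p = 5.43e-08 and 4.95e-06). FER3, a second plastid ferritin, was at 104 ± 9.05 CPM in number 3, against 49.5 ± 21.3 CPM (1.18 ± 0.14, edgeR, adjusted p = 3.62e-05). FER3 also differed between numbers 2 and 1, by 1.15 ± 0.16 (edgeR, adjusted p = 0.000874), and whether it differed from FER1 in this was not tested. FRO6, a leaf reductase gene, was lower in number 2 than in number 1 (-1.1 ± 0.16, edgeR, adjusted p = 0.00085).

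By genotype, 0 of the 14, 13 and 20 tested genes of the 3 lists were called by edgeR's quasi-likelihood test in any comparison with genotype as the only term, with 0 at an unadjusted p under 0.05, and 0% to 0.00484% of all tested genes were called. With the replicate block, 914, 1746 and 772 of all 20672 tested genes were at an unadjusted edgeR p under 0.05. These are for pca31 against atrzf1, pca31 against WT and atrzf1 against WT. Of the list genes 0 were called with the block as well. At such an unadjusted p were 1 to 3 per list, except 0 of the distribution genes in pca31 against atrzf1. In pca31 against WT these were 1 regulator, 3 uptake genes (NAS1, BGLU42 and NAS3) and 2 distribution genes (FRO7 and VTL5), at blocked log2 differences of -0.73 ± 0.2 for NAS1 and 0.62 ± 0.18 for FRO7 (edgeR, adjusted p = 0.389 and 0.413). The values that follow are from the fit with genotype as the only term. BGLU42, a beta-glucosidase of root coumarin release, had log2 differences of 0.59 ± 0.26 for pca31 against atrzf1 and 0.52 ± 0.26 for pca31 against WT (edgeR, adjusted p = 1 for each). By p in pca31 against WT, NAS1, at -0.71 ± 0.41, came next after BGLU42 in its list. FRO7, at 0.64 ± 0.39, was first in its own list. In atrzf1 against WT the values were -0.47 ± 0.45 for MYB72, a root regulator of the iron response, and -0.78 ± 0.87 for FRO4.

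Across the 9 libraries the log2 CPM of IMA1 and IMA2 had a Pearson correlation of 0.99, IMA1 and bHLH38 of 0.96, and bHLH38 and bHLH39 of 0.95. FER1 ran against them, at -0.95 with IMA1, -0.96 with IMA2 and -0.97 with bHLH101. FIT had 0.42 with IMA1 and FRO2 had -0.22. The points share replicate numbers and library depth, and the marker differences given above run with them. Of all tested genes the 5 most like IMA1 were AT1G52190, a major facilitator family gene, PME61, a pectin methylesterase gene, AT2G30766, the histone gene AT5G10390 and AT1G19960, at 0.993 to 0.998. The 5 most like bHLH39, at 0.976 to 0.982, were AT5G53570, MAN6, SADHU7-1, AT4G28310 and AT3G44280. Those most like FER1 were LAC7, a laccase gene, ACR9, CDL1, AT4G30750 and IPS1, a non-coding RNA gene induced by phosphate starvation, at 0.993 to 0.995. IRT1 was not tested and has no such list.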

How the data were processed

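The authors deposited raw counts per gene for each library; all values are whole and the totals differ. Per the labels' protocols, QuantSeq 3' libraries (Lexogen) were made from 500 ng of Trizol-extracted RNA. Per the submitters' processing notes, Bowtie2, bedtools and the TAIR10 build were used; their versions and the strand setting were not given in the sources used here. Whether reads from opposite strands of overlapping genes were counted apart is therefore not known. Of 33323 identifiers 32835 matched a RefSeq TAIR10.1 locus tag, the source of positions and upstream sequences. Those sequences were taken from that assembly, not from the files.

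The fits used edgeR 4.0.16 under R 4.3.3 (filterByExpr, minimum count 10, minimum total 15; TMM scaling with factors of 0.819 to 1.25, glmQLFit, glmQLFTest, Benjamini-Hochberg over 20672 genes, threshold 0.05). Genotype was the sole term when genotypes were compared, over 9 libraries, and the number was added to compare numbers. The ± is an SD for CPM. For log2 fold changes it is an approximate SE, the absolute change divided by the square root of edgeR's F statistic. Same-numbered libraries deviated together, with correlations of 0.585 to 0.849 over 9 pairs, against -0.736 to 0.271 between other libraries, so the numbers pair the libraries. The smallest chi-square per degree of freedom between libraries of a genotype was 185, so none was counted as a duplicate. Floors for a count of 0 cover counting error only, since no molecular identifiers are mentioned. Alternatives were DESeq2 1.42.0, other scalings, no filter, the block, numbers 1 and 2 alone, and each library left out. The tests were also run on simulated counts with planted changes. A minimum recovery was required of the blocked fit and of the number fit, but not of the fit with genotype alone. No limit was set on false calls.

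Named genes were the 10 identifiers, up to 4 genes per list and comparison with the smallest p and a mean of at least 1 CPM, and the 5 genes most correlated with bHLH39, IRT1, IMA1 or FER1. The genes, lists and tests were chosen with earlier results of these data known.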

Additional observations from a re-analysis of the deposited data

Results flagged for a closer look

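bHLH38 and bHLH100 changed direction by at least 2-fold each way between replicate numbers in the same genotype comparison, each ratio coming from 1 library against 1. bHLH38 had an atrzf1 to WT ratio of CPM of 2.28 in number 2 and 0.39 in number 1. bHLH100 had atrzf1 to WT ratios of 4.65 in number 2 and 0.359 in number 1, and pca31 to WT ratios of 4.94 in number 2 and 0.42 in number 1. The difference between the numbers was not tested, because each number holds 1 library per genotype. Without a fold cut, 25% of all tested genes were higher in number 2 and lower in number 1 in atrzf1 against WT. In pca31 against WT that share was 20.5%. The share of all genes that passed a 2-fold cut each way was not counted. In number 3 the bHLH38 counts were 0 in every genotype, and bHLH100 had 2, 0 and 14 counts in pca31, atrzf1 and WT.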

How the results depend on the processing

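In number 3 against numbers 1 and 2, the 7 calls among these genes held in all 14 alternatives. Genotype comparisons called 0 of them in all 16. Counts over all genes moved: for pca31 against WT and atrzf1 against WT, DESeq2 gave 5 and 4, the replicate block 9 and 7, and numbers 1 and 2 alone with the block 28 and 16. DESeq2 with the block, chosen after seeing the data, gave 2 for pca31 against atrzf1, 116 for pca31 against WT and 47 for atrzf1 against WT. With single libraries left out, counts ran from 0 to 1 in both pca31 comparisons and from 1839 to 6259 for number 2 against number 1, where 1 to 6 of the described genes were called. The replicate block changed no call among these genes.

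Signs of genotype differences, none of them called, turned with the setting, and the cause was not tested. With library totals the log2 values were 0.04 for FER1 in pca31 against atrzf1, and 0.21 for IMA1 and 0.1 for IMA2 in pca31 against WT. The replicate block gave -0.2 for bHLH38 and -0.38 for bHLH100 in atrzf1 against WT, 0.29 for bHLH39, -0.02 for bHLH101 and 0.06 for FER1 in pca31 against atrzf1, and -0.8 for bHLH38 and -0.22 for bHLH100 in pca31 against WT. Numbers 1 and 2 alone with the block gave -0.17 for bHLH38 and 0.22 for FRO2 in atrzf1 against WT, -0.03 for bHLH101 and 0.12 for FER1 in pca31 against atrzf1, and -0.79 for bHLH38 and 0.08 for FER1 in pca31 against WT. DESeq2 with the block gave -0.25 for bHLH38, -0.01 for bHLH39 and -1.74 for bHLH100 in atrzf1 against WT, 0.42 for bHLH39, -0.07 for bHLH101 and 0.03 for FER1 in pca31 against atrzf1, and -0.89 for bHLH38 and -1.37 for bHLH100 in pca31 against WT.

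In the genotype comparisons, the fits with single libraries left out had genotype as the only term, without the replicate block. Each such fit left the genotypes with unequal replicate numbers, and the part of this in the ranges was not tested. With single libraries left out, log2 values in pca31 against atrzf1 ran from -3.63 to 2.21 for bHLH38, -2.13 to 2.79 for bHLH39, -3.25 to 3.59 for bHLH100, -0.73 to 0.96 for bHLH101, -0.01 to 2.18 for FRO2, -1.86 to 1.48 for IMA1, -1.25 to 0.92 for IMA2 and -1.42 to 1.43 for FER1. In pca31 against WT they ran from -3 to 0.86 for bHLH38, -1.15 to 1.76 for bHLH39, -1.87 to 2.03 for bHLH100, -0.46 to 1.73 for bHLH101, -0.23 to 0.59 for FIT, -0.58 to 1.45 for FRO2, -1.02 to 0.85 for IMA1, -0.88 to 0.41 for IMA2 and -1.74 to 1.38 for FER1. In atrzf1 against WT they ran from -2.13 to 1.41 for bHLH38, -2.27 to 2.21 for bHLH39, -2.11 to 1.96 for bHLH100, -0.6 to 1.64 for bHLH101, -0.6 to 0.09 for FIT, -1.86 to 0.55 for FRO2, -1.54 to 1.75 for IMA1, -1.06 to 0.95 for IMA2 and -1.83 to 1.45 for FER1. FRO2 ran from -0.08 to 0.66 in number 3 against numbers 1 and 2, and bHLH101 from -1.1 to 0.04 in number 2 against number 1. At 33 counts over all libraries, the depth sets the limit for IRT1.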
